A study of Homo sapiens with 6 samples.

Results

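Transcripts of the nuclear pore and of nuclear transport were compared between control and amiodarone-treated cells of HL-60, a human line established from a promyelocytic leukaemia. Members were the rows of the expression table whose symbol is NUP, XPO, IPO, KPNA, KPNB or TNPO followed by a number alone, together with 14 named genes (RAN, RANBP1, RANBP2, RANGAP1, RCC1, CSE1L, TPR, NDC1, POM121, AAAS, SEH1L, SEC13, RAE1 and NXF1). The rule gave 57 of the 17911 rows, and they were sorted by known role into 28 pore proteins, 25 transport receptors and 4 genes of the Ran system. The study sequenced 6 libraries, 3 labelled control and 3 from cells exposed for 24 h to amiodarone, an antiarrhythmic drug, at 10 uM. The labels do not say whether the control cells received a vehicle, and name no genetic change in either group. Separate cultures are not mentioned for the libraries of a group, and the spread behind the p-values may therefore be technical alone.

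The nuclear pore complex is a large ring of nucleoporins set in the nuclear envelope, and it is the route by which proteins and RNA enter or leave the nucleus. Scaffold rings hold it in the membrane, and nucleoporins rich in phenylalanine-glycine (FG) repeats fill the channel and bind passing receptors. Importins bring cargo in and exportins take it out. The small GTPase Ran sets the direction, because it is kept in its GTP form in the nucleus by RCC1 and in its GDP form in the cytoplasm by RANGAP1 and its binding partners. Most mRNA leaves through NXF1, which does not depend on Ran in this way.

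Values were treated as length-normalised and RPKM-like (reads scaled by gene length and library size), although the unit is not stated in the table. Levels of different genes are set side by side on that assumption, which was not settled. Over the tested rows in log2, Pearson's r was 0.9975 to 0.9982 for pairs within a group and 0.959 to 0.96 for pairs across groups. The depth is unknown: low values were compared for steps of 1 read, but 42.0% to 52.1% of them lay within 0.15 of a whole step, and whole reads were not recovered. Of 10 promyelocyte markers, 9 averaged at least 1, and their summed level was 7160 to 7288 in control libraries and 3251 to 3312 in amiodarone libraries. MPO made up most of this sum (5962 ± 43.7 and 2613 ± 28.4, SD, n = 3 per group), and 7 of the 9 tested markers fell. By the test described below, 44.8% of all tested rows fell. MYB rose (112 ± 0.873 to 124 ± 3.64), and CD33 was not called (91.7 ± 2.12 and 95.5 ± 3.55). The part of these markers in the changes below was not tested. The summed level of the 5 T cell markers was 2.69 to 3.73 in control and 4.93 to 5.36 in amiodarone libraries. CD3G made most of that difference (0.72 ± 0.177 to 2.33 ± 0.261), while CD3D was not called (1.75 ± 0.419 and 1.79 ± 0.312). The summed levels of the erythroid, megakaryocyte, and stromal and epithelial markers found in the table stayed at or below 2.44. B cell markers summed to 22.4 to 24.0 in all libraries, nearly all of it CD79A and CD79B.

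After amiodarone most members were lower. Of the 56 tested members, 41 fell and 4 rose, and 11 did not pass the test (limma on log2(value + 1), Benjamini-Hochberg adjusted p under 0.05 over 11445 tested rows). The same rule called 44.8% of all tested rows lower and 33.5% higher, against 73.2% and 7.14% of the members. The 4 that rose were RANBP2, KPNA4, KPNA5 and XPO1. Of the called members 91.1% were lower, and 80.9% with scaling by the median of ratios, which called 9 members higher. Over all tested rows the lower share of the called was 57.2% and 49.8%, and the median of ratios called 39.2% of them higher. In 41 members every amiodarone library lay below every control library and in 7 above, which was so for 45.3% and 34% of all tested rows. Under a stricter rule that asks for more than a 1.2-fold change, 26 members fell and 3 rose, where all tested rows gave 23% and 16.1%. In bulk RNA, fewer cells of a type and less RNA per cell cannot be told apart.

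**Figure D1:**
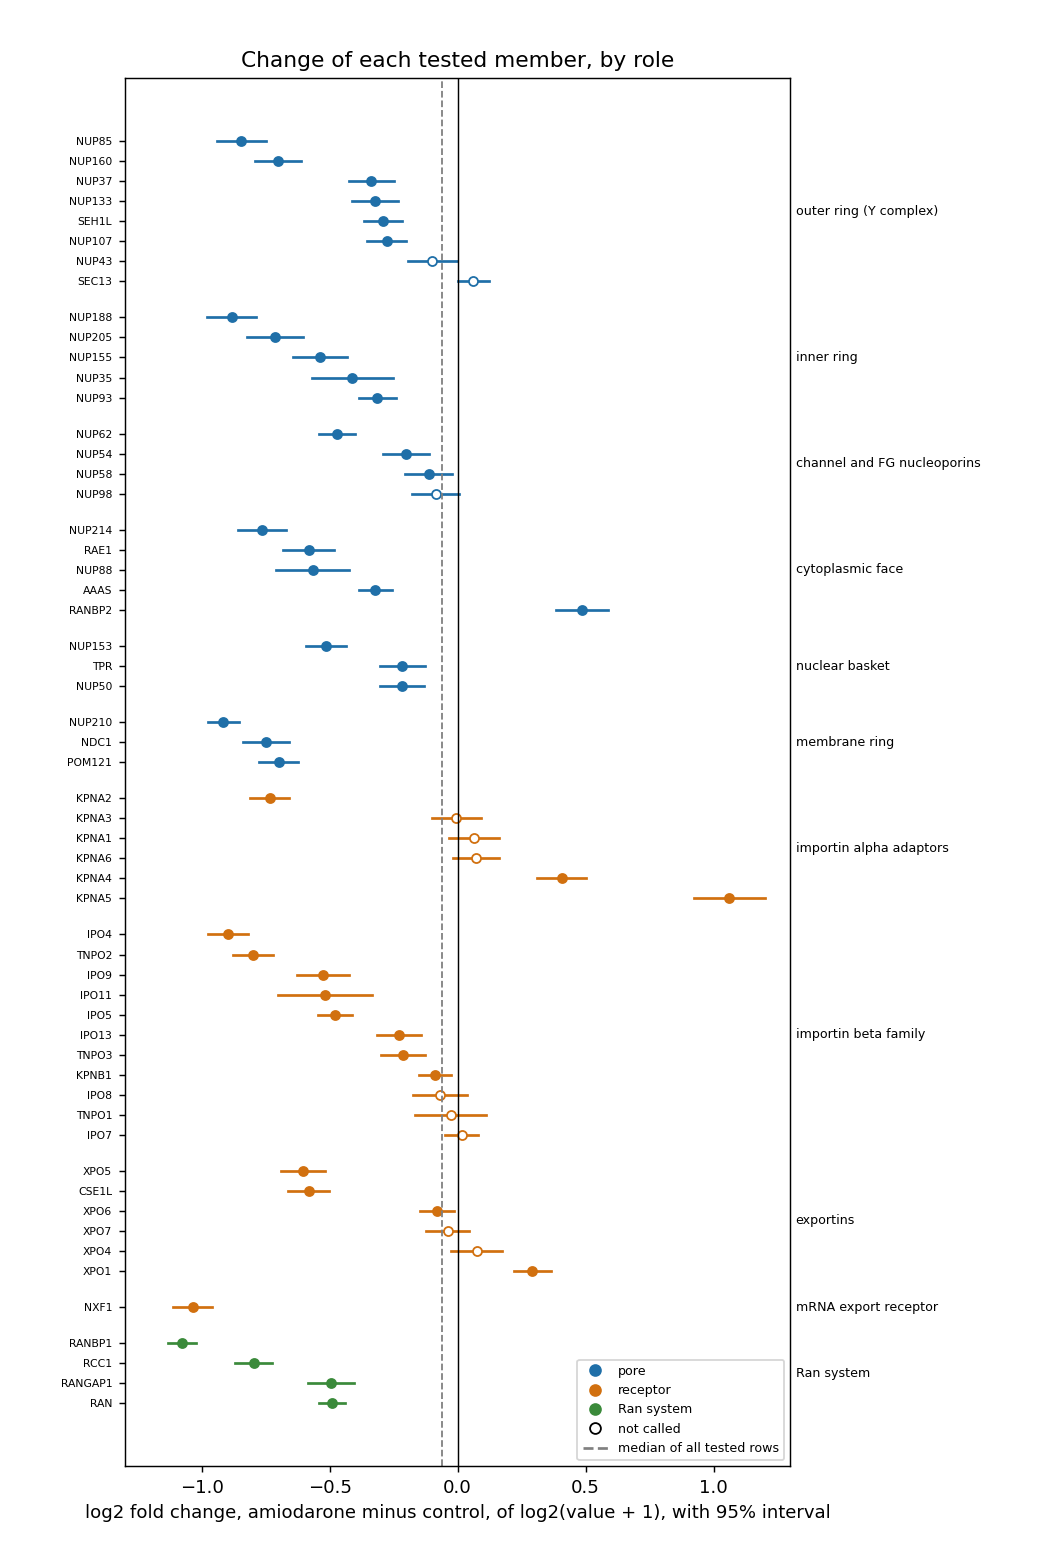
Log2 fold change on log2(value + 1), amiodarone minus control, of the 56 tested members with 95% intervals, grouped by role; filled points passed the test (adjusted p under 0.05), open points did not, and the dashed line is the median of all tested rows (-0.06). Nearly all points of the pore and of the Ran system lie left of zero, while those of the importin alpha genes lie on both sides.

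Pore proteins and transport receptors differed in how widely they fell. Of 28 pore proteins, all tested, 24 fell and 1 rose, the median log2 fold change was -0.37, and the median change in the deposited value was -24.4%. Of 24 tested receptors 13 fell, 3 rose and 8 did not pass, and their median log2 fold change was -0.08. The share called lower was 85.7% of pore proteins and 54.2% of receptors, beside 44.8% of all tested rows. The share called higher was 3.57% and 12.5%, beside 33.5%. Under the 1.2-fold rule the classes lay closer. It called 46.4% of pore proteins and 37.5% of receptors lower, both above the 23% of all tested rows. The same rule called 3.57% and 8.33% higher, beside 16.1%. The median over all tested rows was -0.06. The pore median thus lay below that of all rows, while the receptor median lay close to it. The difference between the classes is a description and has no test. Receptor changes were also more spread, from -1.03 for NXF1 to 1.06 for KPNA5, against -0.92 for NUP210 to 0.49 for RANBP2 among the pore proteins. The summed value of the pore proteins was 844, 846 and 843 in the control libraries and 625, 629 and 636 in the amiodarone libraries. The summed value of the receptors was 729, 717 and 723 in the control libraries and 592, 608 and 616 in the amiodarone libraries. Both sums were lower in every amiodarone library, by 25.4% for the pore and 16.3% for the receptors.

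**Figure D2:**
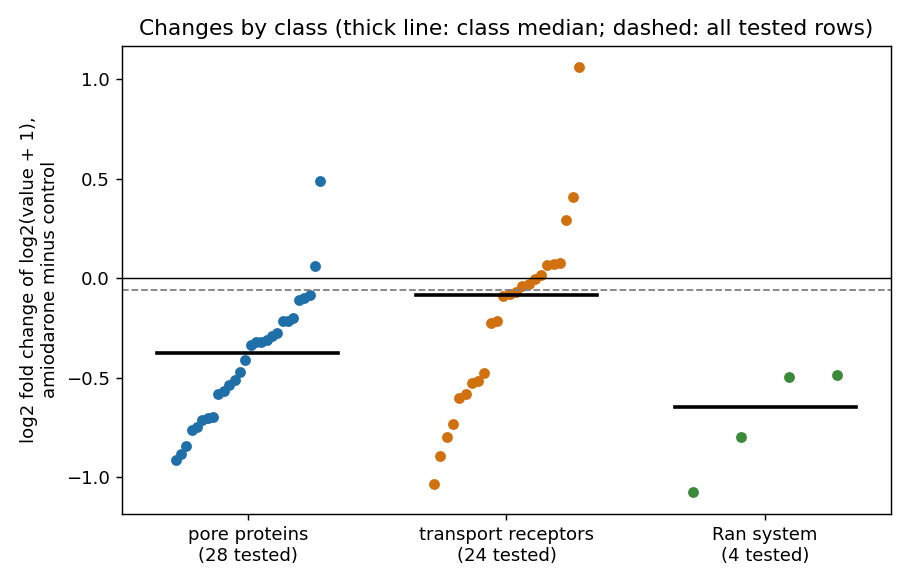
Log2 fold change of each tested member on log2(value + 1), amiodarone minus control, by class; each point is a gene, thick lines are class medians (-0.37 for pore proteins, -0.08 for receptors, -0.65 for the Ran system) and the dashed line is the median of all tested rows. The highest point is a receptor (KPNA5, 1.06) and the lowest a Ran system gene (RANBP1, -1.08), and all 4 Ran system genes lie below zero.

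The membrane ring, which anchors the pore in the nuclear envelope, had the lowest median log2 fold change among the parts of the pore, -0.75. All 3 of its members fell, beside 44.8% of all tested rows. NUP210, a transmembrane nucleoporin whose large domain lies in the lumen of the envelope, had the highest level of the pore proteins in control libraries. Its values were 93.8, 96.0 and 94.6 in control and 50.9, 49.0 and 49.5 in amiodarone libraries. It fell by 47.5%, with a log2 fold change of -0.92 ± 0.027 (SE, limma, adjusted p = 2.59e-10) and a wide gap between the groups. The gene spans 13316235 to 13420309 of chromosome 3, minus strand (GENCODE 29, GRCh38). NDC1, a membrane protein that links the scaffold to the envelope, had 19.6, 19.9 and 19.6 in control and 11.3, 11.7 and 10.9 in amiodarone libraries. POM121, which is needed for new pores to form, had 51.2, 52.6 and 52.8 in control and 33.1, 31.4 and 30.9 in amiodarone libraries. The groups did not overlap in either gene (log2 fold changes -0.75 and -0.70), nor did they in 79.3% of all tested rows. POM121 has a near-identical copy, POM121C, which fell from 31.9 ± 0.436 to 22.9 ± 0.656 (SD, n = 3 per group), and how reads divide among both copies is uncertain. Of its exonic bases, 18.8% also lie opposite the pseudogene NSUN5P2.

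All 5 inner ring genes fell (median log2 fold change -0.54), beside 44.8% of all tested rows. The inner ring is the scaffold that lines the membrane pore. NUP188 had 26.5, 25.6 and 27.3 in control and 13.6, 13.4 and 14.7 in amiodarone libraries. The large scaffold protein gene NUP205, related to NUP188, had 17.5, 16.6 and 16.8 in control and 10.1, 9.29 and 10.5 in amiodarone libraries. NUP155, which contacts the membrane, had 10.9, 11.7 and 11 in control and 7.18, 7.68 and 7.40 in amiodarone libraries. In each of these scaffold genes the groups were apart, as in 79.3% of all tested rows. NUP188 fell by 0.88 on the log2 scale (limma, adjusted p = 1.11e-08). NUP93, which bridges the inner ring to the channel, changed less, from 31.5 ± 0.682 to 25.1 ± 0.404 (SD, n = 3 per group). NUP35 had the lowest level over all libraries among the pore proteins. Its values were 9.87, 9.10 and 9.40 in control and 6.29, 6.50 and 7.87 in amiodarone libraries, lower in each amiodarone library although the last stood above the others.

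The outer ring, or Y complex, did not move as a block. Of its 8 members 6 fell and 2 were not called, beside 44.8% of all tested rows that fell. NUP85 had 24.3, 25.4 and 26.2 in control and 13.9, 13.0 and 14.0 in amiodarone libraries, and NUP160 had 18.9, 19.6 and 18.6 against 10.9, 11.7 and 11.3. NUP85 fell by 46.0% and NUP160 by 40.6%, with log2 fold changes of -0.84 and -0.70. NUP37, a propeller protein that binds NUP160, had 24.7, 24.6 and 23.3 in control and 19.4, 18.2 and 19.3 in amiodarone libraries, a log2 fold change of -0.34. NUP107, NUP133 and SEH1L fell by less, with log2 fold changes of -0.28, -0.32 and -0.29. SEC13, the pore gene of highest mean over all libraries, which also serves in the coat of vesicles that leave the endoplasmic reticulum, had 75.2, 78.6 and 78.3 in control and 81.4, 80.4 and 80.5 in amiodarone libraries. SEC13 was not called (log2 fold change 0.06, limma, adjusted p = 0.057), although its groups did not overlap, as in 79.3% of all tested rows. SEC13 was -0.03 with scaling to equal sums and was called higher with the median of ratios. NUP43 was not called either, at 20.9 ± 0.985 and 19.4 ± 0.64 (log2 fold change -0.10, limma, adjusted p = 0.0539). It was called lower with equal sums (-0.19, limma, adjusted p = 0.00262), with a minimum value of 5 (adjusted p = 0.0496), without control replicate 2 (0.0239) and without amiodarone replicate 3 (0.0316). The ratio of SEC13 to NUP85 was 3.06 ± 0.0589 in control and 5.93 ± 0.243 in amiodarone libraries (SD, n = 3 per group), a pair chosen after the values were seen.

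The FG nucleoporins of the channel changed little apart from NUP62. This central channel protein had 52.2, 54.0 and 54.5 in control and 37.2, 39.2 and 38.6 in amiodarone libraries, and fell by 0.47 on the log2 scale (adjusted p = 1.51e-07). Its channel partners NUP54 (33.1, 30.1 and 30.8 in control, 27.1, 27.8 and 26.4 in amiodarone libraries) and NUP58 (20.5, 19.8 and 19.9 in control, 17.6, 18.6 and 19.4 in amiodarone libraries) fell by 13.5% and fell by 7.81%, in that order. The call of NUP58 was lost under 8 of the 16 settings tried. NUP98 encodes both an FG nucleoporin and, by cleavage, a Y complex subunit, and it is a known fusion partner in acute myeloid leukaemia. Its values were 26.3, 25.2 and 25.1 in control and 22.9, 23.9 and 25.3 in amiodarone libraries. These ranges overlapped, and NUP98 was not called (log2 fold change -0.09, 95% interval -0.18 to 0.01, adjusted p = 0.08). It was called lower with scaling to equal sums (-0.17, limma, adjusted p = 0.00337) and without amiodarone replicate 3 (-0.12, adjusted p = 0.0188).

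At the cytoplasmic face 4 genes fell and 1 rose, where 44.8% of all tested rows fell and 33.5% rose. NUP214, an FG nucleoporin at the docking site of exported cargo and likewise a known leukaemia fusion partner, had 15.6, 16.1 and 15.9 in control and 8.58, 9.07 and 9.12 in amiodarone libraries. NUP88, which holds NUP214 at the pore, had 13.9, 14.3 and 13.0 in control and 8.39, 10.0 and 8.54 in amiodarone libraries. RAE1, an mRNA export factor that binds NUP98, had 47.0, 48.1 and 48.2 in control and 30.1, 30.6 and 34.2 in amiodarone libraries. NUP214, NUP88 and RAE1 were each lower in every amiodarone library, as were 45.3% of all tested rows. Their log2 fold changes were -0.77, -0.57 and -0.58. AAAS, which encodes the scaffold-associated protein ALADIN, fell from 45.2 ± 0.452 to 36.0 ± 0.779 (SD, n = 3 per group). RANBP2, also called NUP358, forms the cytoplasmic filaments and is a SUMO ligase. It went the other way, with 9.11, 9.07 and 8.65 in control and 12.4, 13.4 and 13.0 in amiodarone libraries. RANBP2 was the only pore protein called higher (log2 fold change 0.49 ± 0.045, SE, limma, adjusted p = 2.12e-06), in the fit to the deposited values. Near-identical RGPD genes could share its reads. The table held 7 RGPD rows with amiodarone means of 0.137 to 1.95, near the filter limit of 1. The 5 tested were called higher, as were 33.5% of all tested rows, and RGPD1 and RGPD5 overlapped between the groups. None of the 5 reached 1 in every control library, while all did in every amiodarone library. The filter thus favoured a higher call, and these calls carry little weight. The ratio of RANBP2 to NUP214, chosen after the values were seen, was 0.564 ± 0.0212 in control and 1.45 ± 0.0244 in amiodarone libraries.

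The nuclear basket reaches into the nucleus and was lower in all 3 genes, beside 44.8% of all tested rows. NUP153, a basket FG nucleoporin, had 25.3, 24.5 and 24.5 in control and 16.7, 17.5 and 16.9 in amiodarone libraries. TPR, the coiled-coil protein that builds the basket filaments, had 12.3, 12.8 and 12.5 in control and 10.5, 10.8 and 10.7 in amiodarone libraries. NUP50, which helps release importin cargo, had 35.9, 33.8 and 35.1 in control and 28.5, 30.9 and 30.6 in amiodarone libraries. No basket gene overlapped between the groups, which in either direction was so for 79.3% of all tested rows. NUP153 fell by 31.1% with a log2 fold change of -0.51, against -0.22 for both TPR and NUP50.

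**Figure D3:**
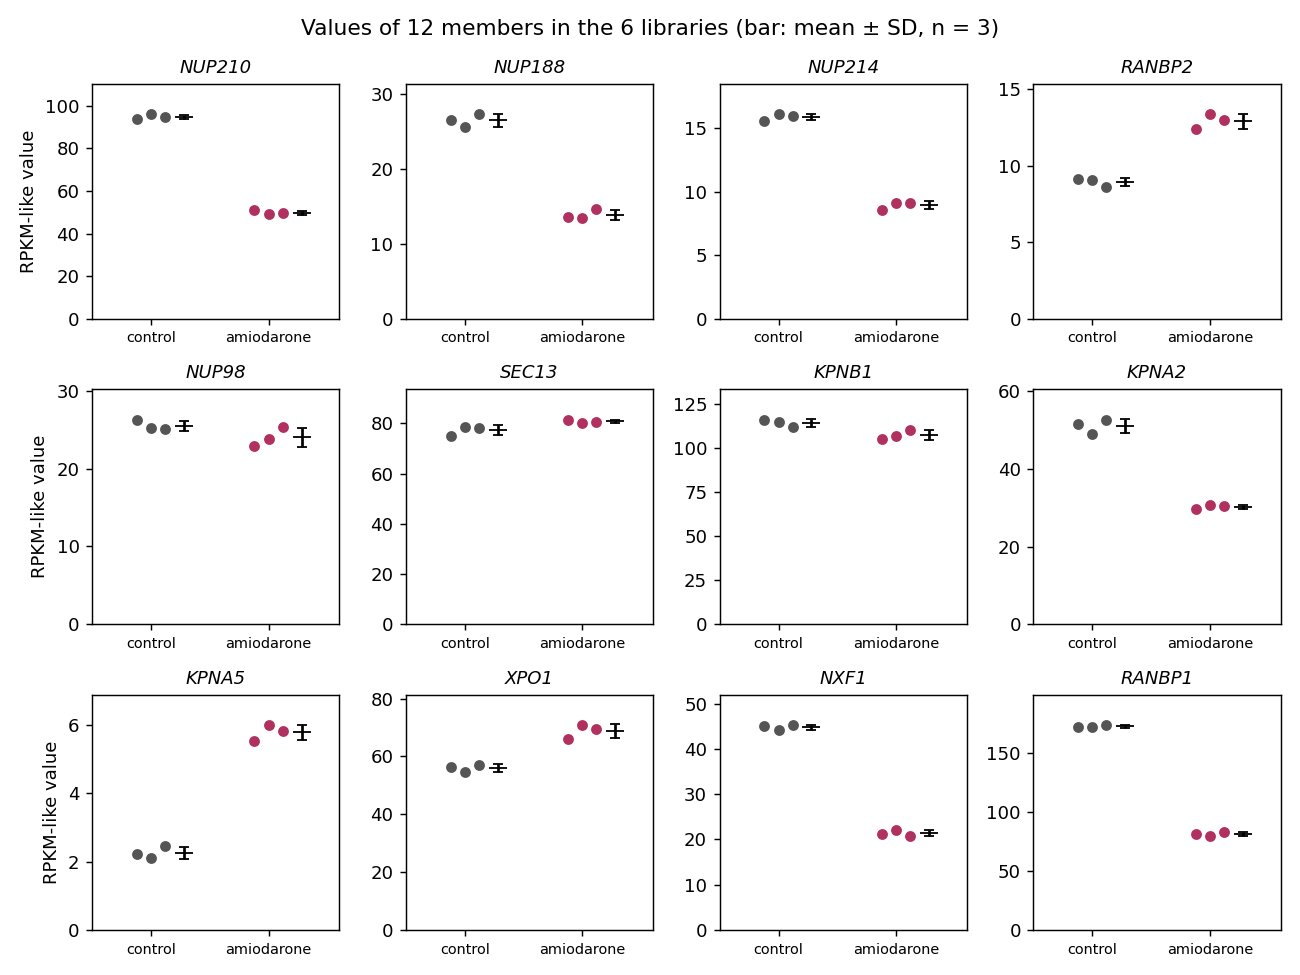
RPKM-like values of 12 members in each library, with the mean and SD of each group (n = 3) beside the points and every axis starting at 0. Control and amiodarone points are clearly apart for NUP210, NUP188, NUP214, KPNA2, NXF1 and RANBP1, which fell, and for RANBP2, KPNA5 and XPO1, which rose; those of NUP98 overlap.

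Importin alpha adaptors, which read the nuclear localisation signal of a cargo and hand it to importin beta, split by gene. Of 6 tested, KPNA2 fell, KPNA4 and KPNA5 rose, and KPNA1, KPNA3 and KPNA6 were not called. The share that rose, 33.3%, is near the 33.5% of all tested rows, of which 44.8% fell. KPNA2 had 51.4, 49.0 and 52.6 in control and 29.6, 30.6 and 30.4 in amiodarone libraries, and fell by 40.7% (log2 fold change -0.73, adjusted p = 7.9e-09). KPNA4 had 10.0, 9.75 and 9.57 in control and 12.8, 13.2 and 13.8 in amiodarone libraries. KPNA5 had 2.22, 2.09 and 2.45 in control and 5.54, 5.99 and 5.81 in amiodarone libraries. KPNA4 thus rose 1.36-fold and KPNA5 2.56-fold, each above every control library, with limma adjusted p of 6.86e-06 and 5.12e-08. Such a gap above control was found in 34% of all tested rows. KPNA5 had the largest rise of all members and lay at the 97.7th percentile of log2 fold changes over all tested rows, but its level stayed low among the adaptors. KPNA1 and KPNA6 had log2 fold changes of 0.06 and 0.07. These turned to -0.02 and -0.01 with scaling to equal sums, while with the median of ratios both were called higher, at 0.13 and 0.14 (limma, adjusted p = 0.0178 and 0.0092). KPNA3, at -0.004, was 0.06 with scaling by the median of ratios. KPNA7 was listed at 0 to 0.14 and was not tested. Exons of KPNA1 lie opposite another gene over 16.3% of their bases. KPNA2 has 3 pseudogenes named after it in GENCODE 29, which could share its reads.

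As a share of the summed importin alpha value, KPNA2 made up 48.8% ± 0.934 in control and 32.9% ± 0.231 in amiodarone libraries (SD, n = 3 per group). KPNA4 went from 9.37% ± 0.255 to 14.5% ± 0.314 and KPNA5 from 2.16% ± 0.146 to 6.29% ± 0.122. KPNA2 was the most abundant adaptor in both groups, and the order of the next was KPNA3, KPNA1, KPNA6, KPNA4 in control and KPNA3, KPNA1, KPNA4, KPNA6 after amiodarone, where the ranges of KPNA1 and KPNA4 overlapped. Shares within a library do not depend on how libraries are scaled, but they assume length-normalised values. The sum itself was 106, 102 and 105 in control and 89.3, 93.1 and 93.0 in amiodarone libraries.

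**Figure D4:**
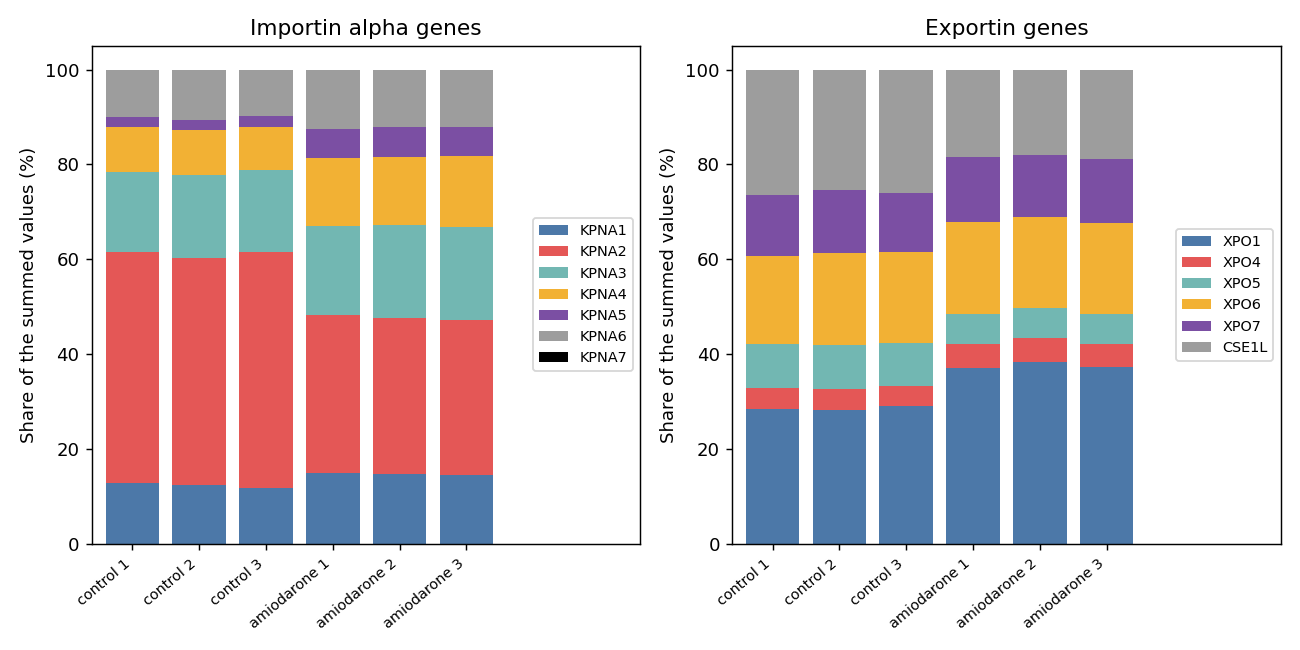
Share of each gene in the summed values of the 7 importin alpha genes (left) and the 6 exportin genes (right) in each library, in percent. The KPNA2 and CSE1L segments are smaller and the KPNA4, KPNA5 and XPO1 segments larger in all 3 amiodarone libraries.

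In the importin beta family 8 of 11 tested members fell, none rose and 3 were not called. All tested rows gave 44.8% lower and 33.5% higher. KPNB1, importin beta itself and the most abundant receptor, had 116, 114 and 112 in control and 105, 107 and 110 in amiodarone libraries. The groups did not overlap, as in 79.3% of all tested rows, but KPNB1 fell by 5.93% (log2 fold change -0.09, limma, adjusted p = 0.0134). The call of KPNB1 ended with scaling by the median of ratios (-0.02). IPO4, which imports ribosomal proteins and histones, had 34.5, 36.1 and 35.8 in control and 18.0, 19.1 and 18.7 in amiodarone libraries. Transportin 2, TNPO2, had 34.3, 34.4 and 34.2 in control and 19.9, 18.5 and 19.6 in amiodarone libraries. IPO4 and TNPO2 were the members of the family that fell most, with log2 fold changes of -0.90 and -0.80. For IPO4, 69.3% of the exonic bases are shared with another annotated gene on the same strand, so its value is uncertain. IPO9 had 10.2, 9.67 and 10.1 in control and 6.56, 6.54 and 6.84 in amiodarone libraries. IPO11, the tested receptor of lowest mean over all libraries (KPNA5 was lower in control), had 4.17, 4.26 and 3.97 in control and 2.63, 2.17 and 3 in amiodarone libraries, and shares 17.0% of its exonic bases with LRRC70. Both IPO9 and IPO11 were lower in every amiodarone library (log2 fold changes -0.53 and -0.52), as were 45.3% of all tested rows. IPO5 (67.5 ± 1.54 to 48.2 ± 0.941), IPO13 and TNPO3, which carries splicing factors with serine and arginine repeats, also fell, with log2 fold changes of -0.48, -0.23 and -0.21.

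IPO7, IPO8 and TNPO1 were not called. IPO7 was at 54.9 ± 0.745 in control and 55.6 ± 1.22 after amiodarone (SD, n = 3 per group), with a 95% interval of the log2 fold change of -0.05 to 0.08. The call of IPO7 went both ways with the scaling: it was lower with equal sums (-0.07, limma, adjusted p = 0.0432) and higher with the median of ratios (0.09, adjusted p = 0.0156). IPO8 was called lower with equal sums (-0.15, limma, adjusted p = 0.014). The closely related transportins had unlike values, since TNPO1 was at 9.63 ± 0.527 and 9.44 ± 0.811 (95% interval -0.16 to 0.11) while TNPO2 fell by 43.7%. The intervals of TNPO1 and TNPO2 did not overlap, and the difference between the genes was not tested. The sign of the TNPO1 value turned with scaling by the median of ratios (0.04).

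Among the 6 exportins 3 fell, 1 rose and 2 were not called. The 50% that fell lie near the 44.8% of all tested rows, of which 33.5% rose. XPO1, or CRM1, which exports proteins with leucine-rich export signals, was the exportin of highest level and rose. Its values were 56.4, 54.6 and 57.0 in control and 66.2, 70.8 and 69.4 in amiodarone libraries, a 1.23-fold difference (log2 fold change 0.29 ± 0.032, SE, limma, adjusted p = 9.01e-06). All amiodarone libraries lay above all control libraries, as in 34% of all tested rows. Yet the rise did not pass the limma test against a 1.2-fold change (adjusted p = 0.405). CSE1L, or CAS, which returns importin alpha to the cytoplasm, had 52.5, 49.2 and 51.4 in control and 32.9, 33.3 and 35.1 in amiodarone libraries. XPO5, which exports microRNA precursors, had 18.6, 18.3 and 18.2 in control and 11.4, 11.9 and 11.9 in amiodarone libraries. CSE1L fell by 33.8% and XPO5 fell by 36.1%, without overlap, which 79.3% of all tested rows showed in either direction. XPO1 and CSE1L were close in control libraries, at a ratio of 1.10 ± 0.0209, and apart in amiodarone libraries, at 2.04 ± 0.0775, a pair also chosen after the values were seen. XPO6, which exports actin, was called lower by 0.08 on the log2 scale, a call lost under 9 of the 16 settings tried. XPO4 (0.08) and XPO7 (-0.04) were not called, and both depended on the scaling. XPO4 was called higher with the median of ratios (0.14, limma, adjusted p = 0.0132) and was -0.01 with equal sums. XPO7 was called lower with equal sums (-0.13, limma, adjusted p = 0.0107) and was 0.03 with the median of ratios.

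NXF1, the main mRNA export receptor, had the largest fall among receptors. It had 45.1, 44.2 and 45.2 in control and 21.3, 22.1 and 20.7 in amiodarone libraries. It fell by 52.3% (log2 fold change -1.03, 95% interval -1.11 to -0.96, limma, adjusted p = 5.78e-10). Every amiodarone library lay below every control library, as in 45.3% of all tested rows. The gene spans 62792123 to 62806302 of chromosome 11, minus strand.

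All 4 genes of the Ran system fell (median log2 fold change -0.65), beside 44.8% of all tested rows. RANBP1, a cytoplasmic cofactor that helps RANGAP1 release Ran from export complexes, had 173, 172 and 174 in control and 81.4, 79.9 and 83.1 in amiodarone libraries. This was the largest fall of all 56 tested members (it fell by 52.9%, log2 fold change -1.08, limma, adjusted p = 4.19e-11). RCC1, the chromatin-bound exchange factor that loads Ran with GTP, had 34.2, 35.1 and 34.4 in control and 19.9, 19.4 and 19.2 in amiodarone libraries. RANGAP1, the GTPase-activating protein, had 41.3, 41.6 and 42.4 in control and 31.3, 28.8 and 28.1 in amiodarone libraries. RAN itself had 151, 153 and 150 in control and 108, 106 and 108 in amiodarone libraries. RCC1 fell by 43.7%, RANGAP1 fell by 29.7% and RAN fell by 28.9%. In these genes no library of one group reached the range of the other, as in 79.3% of all tested rows. GENCODE 29 lists 9 pseudogenes named after RAN and 3 each named after KPNA2, NUP210 and TNPO1. It lists 1 or 2 for SEC13, NUP35, NUP58, IPO5, IPO7 and IPO8. How reads that fit several genes were counted is not stated. RAN spans 130871879 to 130877678 of chromosome 12 and RANBP1 20115938 to 20127357 of chromosome 22, both plus strand.

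Genes that work with these members but fall outside the rule were drawn from lists by role. Of 4 tested pore proteins with other names 3 fell, among them POM121C and GLE1, an activator of the export helicase at the pore (20.4 ± 0.467 to 15.5 ± 0.212), and AHCTF1, which seeds pores on chromatin, was not called (6.87 ± 0.136 and 6.97 ± 0.355). Of 12 tested transport receptors and cofactors, 6 fell and 4 rose, with a median log2 fold change of -0.05, near the -0.06 of all tested rows. NUTF2, the import carrier of Ran, fell from 69.0 ± 1.19 to 42.7 ± 1.58, and RANBP3, a cofactor of XPO1, from 28.1 ± 0.233 to 19.8 ± 0.217. XPOT, the tRNA exportin, rose 1.63-fold, from 43.7 ± 0.707 to 71.2 ± 1.43. CHP1 rose as well (26.9 ± 2.04 to 43.2 ± 1.31). It is counted in this list although it encodes a calcium-binding protein and not a transport receptor. All ± values are SD with n = 3 per group.

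mRNA export factors of the TREX complexes and their helicases mostly fell. Of 19 tested, 12 fell, 3 rose and 4 were not called, with a median of -0.21. THOC3 fell from 85.8 ± 2.86 to 49.2 ± 0.173 and ALYREF, an adaptor that hands mRNA to NXF1, from 141 ± 6.85 to 92.0 ± 2.57. THOC2 (16.4 ± 0.216 to 20.1 ± 0.42) and THOC1 (28.1 ± 1.58 to 33.8 ± 1.05) rose. Of 18 tested genes of the lamina and nuclear envelope 11 fell and 4 rose. LMNB2 (33.7 ± 0.436 to 15.9 ± 0.575) and TMEM201 (10.8 ± 0.246 to 5.08 ± 0.629) fell most. SYNE3, a linker protein of the outer nuclear membrane (4.72 ± 0.095 to 7.15 ± 0.398), and TOR1AIP2 (8.74 ± 0.186 to 10.6 ± 0.345) rose. The shares that fell, from 50% of the other receptors to 75% of the other pore proteins, stand beside 44.8% of all tested rows. The shares that rose, from 0% of the other pore proteins to 33.3% of the other receptors, stand beside 33.5%.

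Promoter sequences were examined for what members share beside their names. RefSeq promoter windows (GRCh38.p14) were found for 50 of the 57 members, and the 250 bases before the first listed start were searched on both strands. The ETS motif CCGGAAG, the core bound by ETS family factors, was in 12 of 27 pore windows and 2 of 20 receptor windows, against 17.2% of the 9354 matched windows of tested rows and 8.8% of all 27305 windows. The CCAAT box (CCAAT) was in 9 of 27 pore and 10 of 20 receptor windows, against 35.4% and 33.0%. The E-box CACGTG was in 7 of 50 member windows (14.0%, against 9.3% and 6.5%). GC boxes (GGGCGG) were in 54.0% of member windows and 67.5% of those of tested rows. The palindromic NRF1 motif was in 3 pore windows (NUP107, NUP50 and NUP62) and in no receptor or Ran system window, against 2.1% and 1.1%. The CRE motif TGACGTCA was in 2 pore windows and no receptor window, against 3.0% and 1.8%. The TATA box (TATAAA) went the other way, with 3 of 20 receptor windows and no pore window, against 5.3% and 11.1%. These were all the motifs searched. The GC box read on the other strand ends in CC, with which the ETS motif begins, so these matches can overlap. A match is a description of letters and not of a bound site. Windows are shown for a pore gene at the cytoplasmic face and one of the membrane ring that both fell and hold the ETS motif, then for XPO1, which rose, and NUP205, which fell, which both hold a CCAAT box. Capitals mark the motif, and each sequence is cut to its longest stretch free of GENCODE 29 exons.
NUP214 (chr9:131125336-131125560, plus strand, motif CCGGAAG): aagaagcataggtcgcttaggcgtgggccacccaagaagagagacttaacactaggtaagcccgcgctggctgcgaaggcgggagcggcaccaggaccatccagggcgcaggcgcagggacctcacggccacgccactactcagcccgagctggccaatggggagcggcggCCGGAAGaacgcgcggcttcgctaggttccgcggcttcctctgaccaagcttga
POM121 (chr7:72879107-72879356, plus strand, motif CCGGAAG): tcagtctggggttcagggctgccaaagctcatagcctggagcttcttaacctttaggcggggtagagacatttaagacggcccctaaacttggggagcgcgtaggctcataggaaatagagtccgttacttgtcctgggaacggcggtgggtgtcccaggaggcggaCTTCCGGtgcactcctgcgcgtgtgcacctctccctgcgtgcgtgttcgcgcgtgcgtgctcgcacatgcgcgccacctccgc
XPO1 (chr2:61538357-61538491, minus strand, motif CCAAT): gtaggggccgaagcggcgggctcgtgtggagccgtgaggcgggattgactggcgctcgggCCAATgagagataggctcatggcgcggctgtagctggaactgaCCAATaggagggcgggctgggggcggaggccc
NUP205 (chr7:135557667-135557916, plus strand, motif CCAAT): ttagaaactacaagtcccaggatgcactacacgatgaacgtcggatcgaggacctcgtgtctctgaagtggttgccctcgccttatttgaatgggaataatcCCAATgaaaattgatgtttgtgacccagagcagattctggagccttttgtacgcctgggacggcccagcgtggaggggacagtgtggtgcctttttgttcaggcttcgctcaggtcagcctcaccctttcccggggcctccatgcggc
The ETS match lies 79 bases before the start in NUP214 and, on the opposite strand, 83 bases before it in POM121. XPO1 has CCAAT boxes 75 and 32 bases before its start and NUP205 one at 148 bases. The XPO1 stretch lies inside the span that GENCODE 29 gives the gene (61477849 to 61538626, minus strand). The start used for XPO1 is therefore not its outermost annotated one. Of the 15 members with the ETS motif, SEC13 was not called and all others fell. Of the 19 members with a CCAAT box, XPO1 rose, KPNA6, NUP98, TNPO1 and XPO4 were not called, and the others fell. Of all tested members 73.2% fell. Whether a motif goes with the change was not tested.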

How the data were processed

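The 6 libraries, 3 per group, came from total RNA and a strand-keeping mRNA kit, per the labels' protocols. Tools named by the submitters' processing notes, with no role given, are featureCounts, STAR 2.5.3a and fastp 0.23.4, and the build is GRCh38.p12. Which annotation and strand setting were used, and how reads matching several genes were counted, was not given in the sources. The authors' deposited table has 1 value per gene and library and names no unit, and its values were treated as RPKM.

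Values were used as deposited. Rows reaching 1 in 3 or more libraries (11445, with 6466 left out) were fitted with limma 3.58.1 in R 4.3.3 (lmFit, eBayes with trend, 4 residual and 6.59 prior degrees of freedom, two-sided) on log2(value + 1), which understates changes of low genes. Benjamini-Hochberg adjustment ran over all tested rows, and calls used 0.05. Log2 fold changes use this scale, while percentages and folds are ratios of group means. The procedure was tested on simulated data with few changed rows and independent normal noise. Such a simulation cannot speak for these data, where 78.3% of tested rows were called. At most 0.751% of tested rows had identical values in 2 libraries. Of the members, KPNA7 was under the filter.

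Values in every library are given for up to 3 called members per role by size of change, for members called against their class, for the highest and lowest of each class, and for XPO1, KPNB1, KPNA2, NUP98, NUP214 and RAN. From each related list, up to 2 called genes per direction are named, and 1 related list is not reported here. Members and lists were chosen with earlier results of these data known. Exon overlaps are from GENCODE 29.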

Additional observations from a re-analysis of the deposited data

How the results depend on the processing

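Each result was recomputed under other pseudocounts, filters, scalings, variance models, member sets and a 1.2-fold rule, and without each library. The number of members called lower stayed within 1.5 times 41 except under the test against a 1.2-fold change (26). The number called higher was 9 with scaling by the median of ratios and 8 with scaling to equal sums without the 50 genes of highest mean, instead of 4, where 39.2% and 37.6% of all tested rows were called higher, instead of 33.5%. Of the called members 91.1% were lower with the values as deposited and 80.9% with the median of ratios. The 4 genes called higher stayed so under every refit but the 1.2-fold rule, which lost XPO1. The pore median was -0.405 and -0.289 at pseudocounts of 0.1 and 5, -0.309 with the median of ratios, -0.459 with equal sums and -0.327 without the 50 genes. The receptor median was -0.0138, -0.173 and -0.0324 under these 3 scalings. The median of all tested rows moved alike, by 0.0627, -0.0842 and 0.0456, to 0.00192, -0.145 and -0.0152. Leaving out each library in turn gave a pore median of -0.414 (without amiodarone replicate 3) to -0.353, a receptor median of -0.0976 to -0.0695, 39 to 43 members lower and 4 higher.
Single members near 0 changed sign. With the median of ratios, and with equal sums without the 50 genes, XPO7 was 0.0292 and 0.0109, KPNA3 0.063 and 0.0451, and TNPO1 0.0367 and 0.0196. With equal sums XPO4 was -0.00636, KPNA6 -0.0107, IPO7 -0.0734, KPNA1 -0.0211 and SEC13 -0.0282. KPNA3 was 0.00565 without control replicate 3 and 0.0361 without amiodarone replicate 1, and TNPO1 0.0123 and 0.0212. Leaving out each library in turn gave -0.0248 to 0.0361 for KPNA3 and -0.0879 to 0.0212 for TNPO1. Scaling also added calls: IPO7, KPNA1, KPNA6, SEC13 and XPO4 were higher with the median of ratios, the last 4 also without the 50 genes, and NUP43, NUP98, IPO8, IPO7 and XPO7 were lower with equal sums. Of 16 settings, the calls of XPO6, NUP58 and KPNB1 were lost under 9, 8 and 5. Replicate numbers did not pair the libraries: deviations of same-numbered libraries correlated at -0.155, -0.0182 and -0.0231. With the replicate number as a block, which lost XPO6 and NUP58, 39 members were lower and 4 higher, and the pore and receptor medians were -0.375 and -0.0837. Member sets with other symbols added or copies left out change no single gene and were run for counts and medians alone. The depth behind the values is unknown and their unit is not stated, so the precision of low genes such as IPO11 and KPNA5 rests on the spread between libraries alone.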
